A study of Arabidopsis thaliana with 4 samples.

Results

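The loci described here are the Arabidopsis thaliana gene models that were assigned a differentially methylated region (DMR) in each of 4 comparisons between light regimes, in any cytosine context. They were chosen by the calls of those same comparisons, so their levels, directions and region counts are a description and carry no test. Of 5110 loci named in at least 1 comparison, 189 were named in all 4, 554 in 3, 1383 in 2 and 2984 in 1.

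Leaf DNA of Col-0 plants was analysed by whole genome bisulfite sequencing after acclimation to 1 of 4 regimes, without any mutant or transgene. The labels give 22 days of acclimation, and the study's text gives a slightly different duration. The labels also give 22 °C for every regime, whereas the study's methods give other day and night temperatures under the regimes. Square light was held at one intensity all day, at a high level (SQH) or a low level (SQL), and fluctuating light followed a natural daily course at a high mean intensity (FLH) or at a low one (FLL). Each regime was 1 library of DNA pooled from several plants, so differences between plants within a regime cannot be seen and no comparison has a replicate check. High was compared with low light within each pattern (SQHvSQL and FLHvFLL), and square with fluctuating light at each intensity (SQHvFLH and SQLvFLL). Levels below are methylated reads over all reads summed over the cytosines of a region, with 95% Wilson intervals that cover counting error only, since reads at neighbouring cytosines are not independent. A gain means a higher level in the second regime of the comparison name, and a loss a lower one.

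Plants methylate cytosines in CpG, CpHpG and CpHpH contexts, where H is A, C or T. CpG methylation is copied at replication by MET1 and also occurs in the bodies of many expressed genes, CpHpG methylation is maintained mainly by CMT3 with histone H3 lysine 9 methylation, and CpHpH methylation is set anew by DRM2 through RNA-directed DNA methylation or by CMT2. The last 2 contexts are found mainly in transposable elements (TEs), which carry all contexts when silenced.

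At 15 positions, each in a different locus, the same window and context was listed in all 4 comparisons. The windows of 6 of them, those read most deeply in their least covered library, are printed because the 4 regimes can be set side by side there over the same cytosines. The sequences are from the RefSeq TAIR10.1 assembly, whose cytosine counts equalled the tabulated ones in 1305 of 1305 regions of these loci (the submitters name TAIR10). All are plus strand, 5′ to 3′, and capitals mark the cytosines counted, as C where the plus strand carries the cytosine and as G where the minus strand does.
AT1G20925 (auxin efflux carrier family, chr1:7291951-7292100, CpG): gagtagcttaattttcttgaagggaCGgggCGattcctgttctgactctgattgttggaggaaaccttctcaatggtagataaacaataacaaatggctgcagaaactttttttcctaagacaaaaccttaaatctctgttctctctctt
AT3G58730 (V-ATPase subunit D, chr3:21718601-21718750, CpG): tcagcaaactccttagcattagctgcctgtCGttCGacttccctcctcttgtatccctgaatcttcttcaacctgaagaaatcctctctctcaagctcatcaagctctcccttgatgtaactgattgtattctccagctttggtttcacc
AT3G62040 (haloacid dehalogenase-like, chr3:22975301-22975450, CpG): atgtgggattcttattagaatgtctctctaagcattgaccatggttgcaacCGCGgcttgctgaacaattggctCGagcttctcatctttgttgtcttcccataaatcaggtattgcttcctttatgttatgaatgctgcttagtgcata
AT1G62975 (bHLH family, chr1:23329501-23329650, CpG): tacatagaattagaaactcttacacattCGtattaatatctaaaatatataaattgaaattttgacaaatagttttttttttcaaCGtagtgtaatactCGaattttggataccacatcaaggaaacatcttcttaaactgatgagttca
AT1G60987 (SCRL5, chr1:22460251-22460400, CpHpH): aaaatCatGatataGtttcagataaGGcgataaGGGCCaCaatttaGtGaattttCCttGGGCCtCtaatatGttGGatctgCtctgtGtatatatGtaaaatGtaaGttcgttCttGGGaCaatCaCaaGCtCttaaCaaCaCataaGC
AT1G64035 (transcribed pseudogene, chr1:23755351-23755500, CpHpH): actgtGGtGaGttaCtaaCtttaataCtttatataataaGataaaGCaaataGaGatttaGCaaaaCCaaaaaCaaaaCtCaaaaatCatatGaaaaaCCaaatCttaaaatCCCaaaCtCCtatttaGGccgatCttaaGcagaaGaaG

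The CpG windows hold few counted cytosines, 4 in AT1G20925 and AT3G58730 and 6 in AT3G62040 and AT1G62975, whereas the CpHpH windows hold 44 in AT1G60987 and 36 in AT1G64035. All 4 CpG windows overlap annotated genes. The middle of the window fell in a coding exon of AT3G58730, AT3G62040 and AT1G20925 and in an intron of AT1G62975. Both CpHpH windows cross an end of the annotated locus.

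AT3G58730 encodes subunit D of the vacuolar proton-pumping ATPase, which acidifies the vacuole. Its window was methylated at 92.1% in SQH (interval 79.2 to 97.3, 38 reads), 22.2% in SQL (12.5 to 36.3, 45 reads), 37.0% in FLH (24.5 to 51.4, 46 reads) and 90.0% in FLL (79.9 to 95.3, 60 reads). SQH and FLL were high and SQL and FLH low, and no interval of the high pair overlapped one of the low pair. Every contrast between these pairs was a call that chose the position, so this separation carries no test. The range of 69.9 percentage points was larger than at any of the other 14 positions. AT3G62040, a haloacid dehalogenase-like hydrolase, had the same order in groups, with 87.0% in SQH (74.3 to 93.9), 44.9% in SQL (35.4 to 54.8), 56.6% in FLH (43.3 to 69.0) and 89.5% in FLL (80.6 to 94.6).

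AT5G59430 (TRP1) encodes a protein that binds telomeric repeats. A CpG window centred in a coding exon, chr5:23969855-23970004, was methylated at 66.7% in SQH (46.7 to 82.0, 24 reads), 15.2% in SQL (7.57 to 28.2, 46 reads), 15.8% in FLH (7.44 to 30.4, 38 reads) and 49.1% in FLL (36.4 to 61.9, 55 reads). SQH and FLL again lay above SQL and FLH. A second CpG region of TRP1, starting at chr5:23970155, was called in FLHvFLL alone and went the other way, from 84.72% in FLH to 61.11% in FLL.

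The other pair of CpG positions had the opposite arrangement. AT1G20925, a member of the auxin efflux carrier family, was methylated at 30.8% in SQH (18.6 to 46.4), 74.4% in SQL (58.9 to 85.4), 69.0% in FLH (54.0 to 80.9) and 8.33% in FLL (3.29 to 19.6). AT1G62975, a basic helix-loop-helix transcription factor gene, stood at 22.2% in SQH (12.5 to 36.3), 64.1% in SQL (53.0 to 73.9), 63.0% in FLH (52.1 to 72.7) and 29.2% in FLL (19.6 to 41.2). In both genes SQL and FLH were high and SQH and FLL low. The intervals of the high pair did not overlap those of the low pair, but the calls on these contrasts chose the positions.

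SCRL5 (AT1G60987) encodes a small protein related to SCR, the pollen determinant of self-incompatibility. Its CpHpH level was 4.73% in SQH (3.08 to 7.19), 23.9% in SQL (19.6 to 28.7), 26.2% in FLH (22.6 to 30.1) and 8.55% in FLL (6.26 to 11.6). The same window was also called in the other contexts in SQHvFLH and FLHvFLL. Its CpG level was 13.5% in SQH, 54.9% in FLH and 15.0% in FLL, and its CpHpG level 9.43% in SQH, 44.9% in FLH and 13.8% in FLL. FLH was thus the highest of these 3 regimes in every context of this window, which carries no TE name.

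AT1G64035, a transcribed pseudogene with an ATREP11 Helitron named in the window, had CpHpH levels of 23.0% in SQH (18.8 to 27.8), 12.7% in SQL (9.53 to 16.7), 12.8% in FLH (9.64 to 16.7) and 29.5% in FLL (25.1 to 34.3). The pseudogene AT2G15990 had 45.8% in SQH (40.8 to 50.9), 29.8% in SQL (25.3 to 34.6), 33.3% in FLH (27.9 to 39.3) and 45.4% in FLL (40.8 to 50.0). In both, SQH and FLL were the higher pair. The AT2G15990 window crosses an end of the annotated locus, as that of AT1G64035 does. AT1G30780, an F-box associated gene with an intronic RP1_AT element, had 48.4% in SQH (42.3 to 54.6), 35.7% in SQL (31.5 to 40.2), 29.6% in FLH (24.2 to 35.5) and 48.7% in FLL (42.8 to 54.7).

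AT3G47800 encodes a galactose mutarotase-like protein and carries a HELITRONY1D element in the intron concerned. Its CpHpH level was 38.4% in SQH (30.7 to 46.7), 13.7% in SQL (8.87 to 20.7), 12.3% in FLH (8.55 to 17.4) and 29.9% in FLL (23.8 to 36.9). AT2G13450, which encodes a Ta11-like non-LTR retrotransposon protein, was reversed, with 15.5% in SQH (10.9 to 21.4), 34.5% in SQL (28.2 to 41.4), 28.6% in FLH (22.9 to 35.2) and 18.0% in FLL (13.9 to 23.1). In AT2G13450 the intervals of FLH and FLL overlapped slightly, although FLHvFLL was among the calls that chose the position.

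A different order was found in AT1G53265, an uncharacterised gene, where FLH was highest at 45.7% (41.2 to 50.2), SQH at 35.2% (30.0 to 40.7) and FLL at 33.7% (29.7 to 38.0) were not separated, and SQL was lowest at 23.3% (19.0 to 28.2). Low light was lower than high light there in both patterns, and fluctuating light was above square light at both intensities. AT2G06555, also uncharacterised, had its highest level in SQH and its lowest in FLL. AT4G03380 and the TA11-bearing pseudogene AT5G18633 had SQH and FLL above SQL and FLH.

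Across the 15 positions, SQH and FLL lay above SQL and FLH at 9 and below them at 4, and the remaining 2 were AT1G53265 and AT2G06555. A position had to differ in all 4 comparisons to be among the 15, which constrains the orders that can occur, so this split is not evidence about light. The whole series held 84 such positions, these 15 included, and 77 of them (91.7%) had one of the same crossed arrangements. In that respect the loci named in all comparisons were not shown to differ from the rest.

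**Figure D1:**
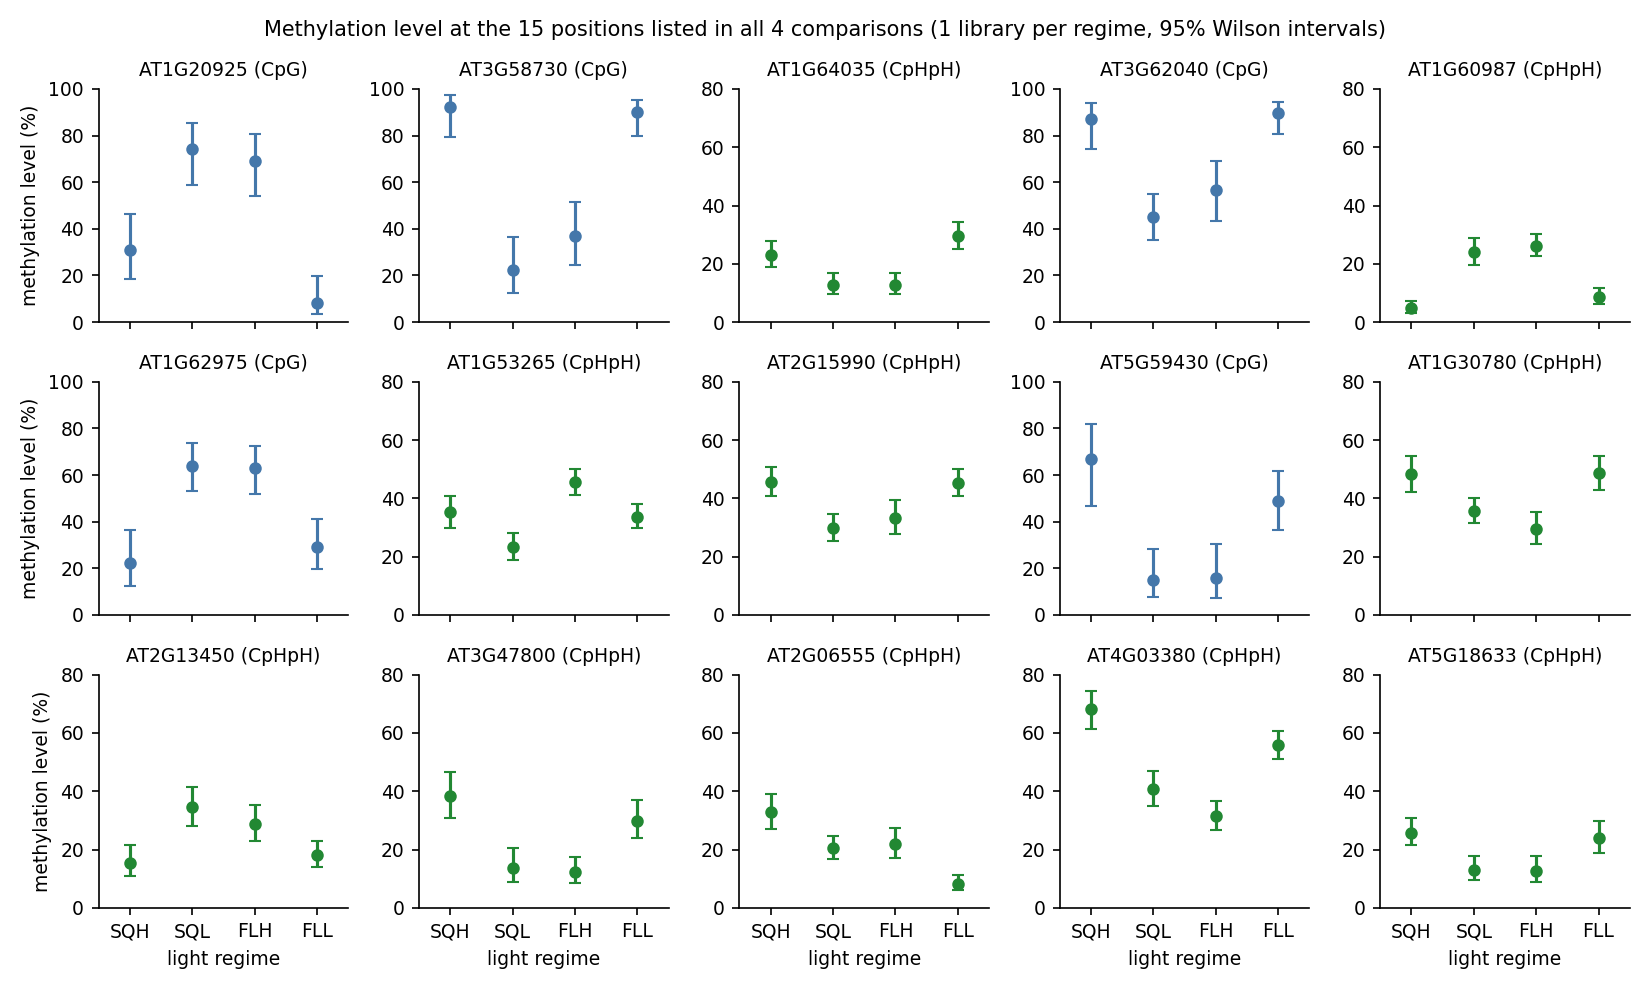
Methylation level (percent, vertical axis) in the 4 light regimes at the 15 positions listed in all 4 comparisons, one panel per locus; points are 1 pooled library each and bars are 95% Wilson intervals (blue CpG, green CpHpH). AT3G58730 stands at 92.1% in SQH and 90.0% in FLL against 22.2% in SQL and 37.0% in FLH, and AT1G20925 shows the opposite arrangement.

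Levels in all 4 regimes could be read at 48 positions of 46 loci, including positions called in fewer comparisons that together cover every library. CpHpH accounted for 34 of them, CpG for 9 and CpHpG for 5. ELF4-L3 (AT2G06255), a relative of the circadian clock gene ELF4, had CpHpH levels of 34.3% (SQH), 15.7% (SQL), 8.57% (FLH) and 22.7% (FLL) at a window with an ATREP3 Helitron in an untranslated exon. AT1G50050, of the CAP secreted protein superfamily, had 41.9% (SQH), 25.7% (SQL), 29.2% (FLH) and 44.9% (FLL) in an intron without a TE name. Both had SQH and FLL as the higher pair.

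At the other positions the order was more mixed. The Copia-derived AT1G16660 had CpHpG levels of 35.7% (SQH), 49.4% (SQL), 71.0% (FLH) and 73.5% (FLL), and the ATLANTYS1 window of AT4G04050 had 32.9% (SQH), 39.0% (SQL), 57.7% (FLH) and 69.9% (FLL). In both of these retrotransposon loci the fluctuating regimes were above the square ones, and both positions were called only in SQHvFLH and SQLvFLL. The other CpHpG positions, also in retrotransposon loci, had other orders. AT2G13080 and AT5G32386 were crossed, and in AT5G34849 both high light regimes were above the low ones. Of the 48 positions, 32 had a crossed arrangement, 14 moved the same way in both comparisons of each kind and 2 were mixed. Over the 837 positions of the whole series that could be read in every regime, 402 (48.0%) were crossed, 326 (38.9%) moved the same way and 109 were mixed. The 15 positions listed in all comparisons supply 13 of the 32, and the difference from the series was not tested.

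Most of these loci are not ordinary protein-coding genes. RefSeq annotates 188 of the 189, of which 149 (79.3%) are pseudogenes, a class that in this annotation includes most TE-derived gene models, 38 (20.2%) are protein-coding and 1 is the microRNA gene MIR407 (AT2G32698). In RefSeq as a whole 12.8% of loci are pseudogenes. The share of pseudogenes was 37.7% among loci named in 1 comparison, 52.8% in 2 and 68.1% in 3. A TE was named in at least 1 region of 168 of the 189 loci (88.9%), against 39.7% of loci named in 1 comparison, 58.4% in 2 and 76.5% in 3.

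Loci named more often were also longer. The median annotated length was 2704 bp for loci named in 1 comparison, 2824 bp in 2, 3738 bp in 3 and 4306 bp in all 4, with quartiles of 2657 and 5518 bp in the last class. A longer locus holds more windows, and the part of length in being named in all 4 comparisons was not tested. Among pseudogenes the median length was 4581 bp in the loci named in all 4 and 2102 bp in those named in 1. For protein-coding loci the corresponding medians were 2510 bp and 3081 bp.

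Pericentromeric windows, defined by a low density of protein-coding genes, held 60 of the 188 annotated loci (31.9%), and 10.5% of all RefSeq loci. The share was 31.2% for loci named in 1 comparison, 37.6% in 2 and 43.8% in 3, so the loci named in all 4 did not continue the increase. Pseudogenes were in these windows in 38.3% of cases and protein-coding members in 7.89%. Requiring 1 and the same context in all 4 comparisons lowered the pericentromeric share to 17.3%. Chromosome 5 held 53 of the loci, chromosome 1 held 44, and chromosomes 2, 3 and 4 held 33, 32 and 27.

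**Figure D2:**
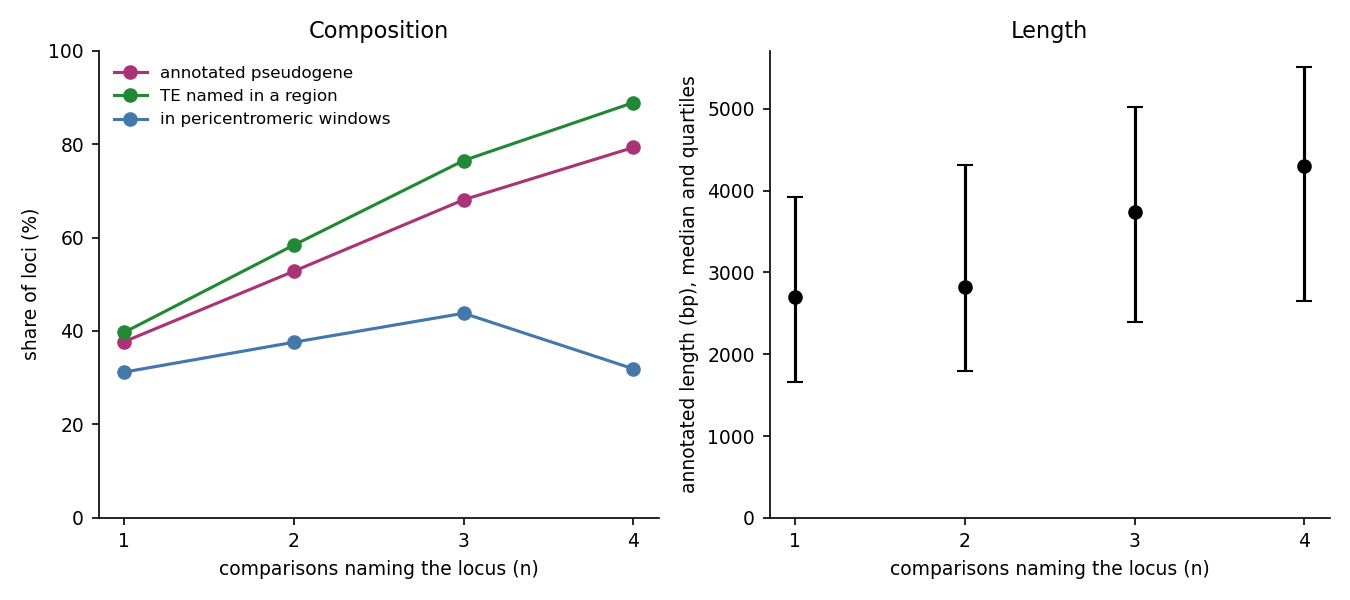
Loci grouped by the number of comparisons that name them (horizontal axis); the left panel gives the percent annotated as pseudogenes, with a TE named in a region and in pericentromeric windows, and the right panel the median annotated length in bp with quartiles as bars. Pseudogenes make up 37.7% of loci named once and 79.3% of those named in all 4.

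The 189 loci carried 1305 regions, 5.26% of all 24806 listed. RefSeq loci were named at 2.39% in SQHvSQL, 5.57% in FLHvFLL, 5.65% in SQHvFLH and 7.81% in SQLvFLL. SQHvSQL was therefore the comparison least often passed, and 289 of the 554 loci named in 3 comparisons lacked it. A locus had between 4 and 22 regions (median 6), and 36 loci had exactly 1 region in each comparison. Most regions were single windows of 150 bp (1247 of 1305), and the widest spanned 900 bp.

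CpHpH made up 693 of the regions (53.1%, against 51.2% of all listed regions), CpHpG 350 and CpG 262. By comparison the CpHpH share was below that of all listed regions in SQHvSQL (63.5% against 79.4%) and above it in SQLvFLL (48.9% against 41.7%). In 76 loci all 3 contexts occurred, and 36 loci were named through CpHpH alone, 5 through CpG alone and 3 through CpHpG alone. The 5 loci of CpG alone were the genes AT1G20925, AT1G62975, AT3G58730, AT3G62040 and TRP1 described above. A single context named the locus in all 4 comparisons for 105 loci, of which CpHpH did so for 81, CpHpG for 19 and CpG for 5. CpG was listed in SQHvSQL only from a difference of 40.2 points, and in the other comparisons from 20 points, and SQHvSQL accordingly held 9 CpG regions of these loci.

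Named in all 4 comparisons rarely meant one position changing 4 times. Of 1013 distinct positions, 769 (75.9%) were listed in 1 comparison, 211 in 2, 18 in 3 and 15 in 4. Over the whole series 84 positions were listed in all 4, among 24806 listed regions, so such positions were few there as well. The other shares were not computed for the series, so the low sharing is not a trait of these loci. For 125 loci the most often listed position came from 2 comparisons, and for 31 loci no position was listed more than once. These counts require the same start, end and context. By overlap of any base in the same context, 24 loci had a base covered in all 4 comparisons. In 27 loci no base was covered in more than 1. Gains and losses occurred together in 174 of the 189 loci, 13 loci had gains alone and 2 losses alone. Each of these loci had at least 4 regions from 4 different comparisons. The corresponding share was not computed for other loci, so this count is not a result about the members. Where a locus had at least 2 regions of the same context in the same comparison, they went one way in 58.6% of cases (133 of 227), and in 63.3% (408 of 645) for other named loci.

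Directions by comparison and context are given beside the share over all listed regions, and since these contrasts chose the loci nothing is read from the pairs. In SQHvSQL, CpG gains were 6 of 9 regions (all listed regions 80.3%), CpHpG gains 55 of 87 (54.1%) and CpHpH gains 59 of 167 (34.6%). In FLHvFLL, CpG gains were 41 of 85 (51.3%), CpHpG gains 43 of 65 (62.2%) and CpHpH gains 110 of 166 (65.5%).

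Between patterns, SQHvFLH had CpG gains in 21 of 70 regions (all listed regions 42.4%), CpHpG gains in 78 of 93 (78.6%) and CpHpH gains in 88 of 166 (44.7%). SQLvFLL had CpG gains in 18 of 98 (22.4%), CpHpG gains in 92 of 105 (82.8%) and CpHpH gains in 165 of 194 (73.3%). In all 12 pairs the comparison itself chose the loci.

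**Figure D3:**
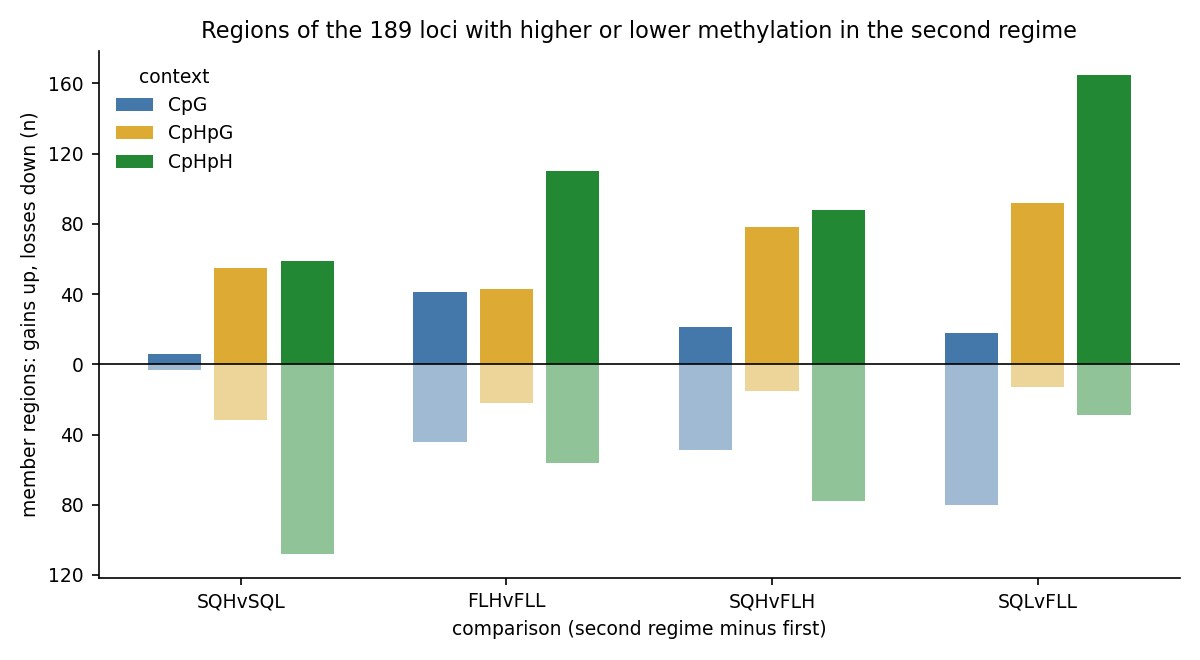
Number of regions of the 189 loci with a higher (above the zero line, full colour) or lower (below it, pale) level in the second regime, by comparison and context. CpHpG gains outnumber losses in all 4 comparisons, and CpHpH losses outnumber gains only in SQHvSQL.

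Summed over regions, the CpHpG level of these loci was 40.1% (39.1 to 41.2) in SQH and 58.5% (57.4 to 59.5) in FLH over the SQHvFLH regions. It was 40.8% (39.9 to 41.8) in SQL and 59.5% (58.6 to 60.5) in FLL over the SQLvFLL regions. The CpG level was 80.9% in SQH and 70.4% in FLH, and 79.6% in SQL and 62.5% in FLL. The differences, second regime minus first, were 18.3 and 18.7 points for CpHpG and -10.4 and -17.1 points for CpG. Over the other listed regions they had the same signs, at 15.6 and 16.9 points for CpHpG and -4.98 and -14.9 points for CpG, so the opposition of the contexts was not particular to these loci.

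CpHpH levels were lower throughout. They were 21.1% (20.8 to 21.5) in SQH and 17.6% (17.2 to 17.9) in SQL over SQHvSQL regions, and 19.3% (19.0 to 19.7) in FLH and 23.9% (23.5 to 24.3) in FLL over FLHvFLL regions. Between patterns they were 20% (19.6 to 20.4) in SQH and 20.3% (19.9 to 20.6) in FLH, with overlapping intervals, and 14.9% (14.6 to 15.2) in SQL and 24.1% (23.8 to 24.4) in FLL. The CpHpH differences changed under a depth limit that also changed the set of loci. Regions with fewer than 8 reads per cytosine in either library were left out and the loci chosen anew, which left 9 loci. Over the few CpHpH regions of those 9, the difference, second regime minus first, changed sign in SQHvSQL (3.01 points), FLHvFLL (-3.48 points) and SQLvFLL (-4.72 points). Depth and the set of loci changed together here, so the sign change cannot be assigned to depth.

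Regions of these loci had a lower median depth than the other listed regions in 22 of 24 combinations of context, comparison and library, the exceptions being CpG and CpHpG of SQHvSQL in SQL. The median depth of their CpHpH regions was between 6.16 and 7.26 reads per cytosine by library and comparison, and between 6.87 and 8.29 elsewhere. The part of depth in the calls was not tested.

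**Figure D4:**
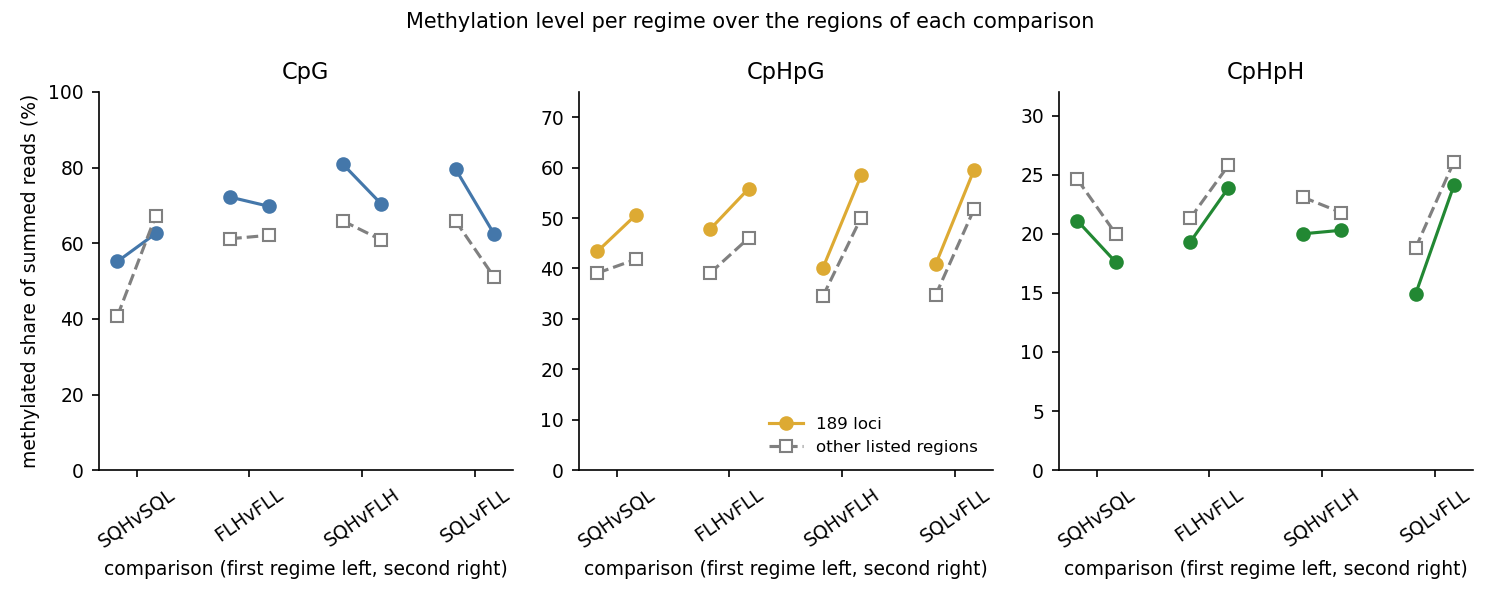
Methylated share of summed reads (percent) in the first regime (left point) and second regime (right point) of each comparison, by context, for regions of the 189 loci (filled circles) and other listed regions (open squares). CpHpG of the loci goes from 40.1% in SQH to 58.5% in FLH and from 40.8% in SQL to 59.5% in FLL, and CpG goes the other way in both.

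TE names were given in 1127 of the 1305 regions (86.4%), against 69.7% of all listed regions, and covered 104 families. In SQHvSQL the share was not higher than over all listed regions, at 87.1% against 89.0%. Retrotransposons led. Gypsy elements, which are LTR retrotransposons common near centromeres, accounted for 355 of the 1127 regions (31.5%) in 56 loci. Copia elements, the other main LTR group, accounted for 233 (20.7%) in 29 loci, and LINE elements, which lack LTRs, for 205 (18.2%) in 30 loci. Among the other listed regions with a TE name the shares were 22.0%, 6.29% and 5.29%.

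DNA transposons were fewer. Mutator-like elements made up 137 regions (12.2%, against 15.4% elsewhere) and CACTA elements 44 (3.90%, against 2.85%). Helitrons, which replicate by a rolling circle, made up 74 (6.57%), against 32.4% of the other listed regions. The listed loci are gene models, and a TE without a gene model cannot enter through the gene column, so the makeup of the 2 sets differs by construction and was not tested.

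Contexts differed between superfamilies. Gypsy regions were spread over CpG (109), CpHpG (128) and CpHpH (118), whereas LINE regions were mostly CpHpH (135 of 205) and Helitron regions still more so (61 of 74). In SQLvFLL the CpHpG level of Gypsy regions was 37.4% in SQL and 56.0% in FLL with gains in 35 of 40 regions. Copia regions had 43.2% and 61.5% with gains in 21 of 24, and LINE regions 44.8% and 62.7% with gains in 13 of 15. Mutator-like regions had gains in 7 of 8 and CACTA regions in 6 of 7. Over all listed CpHpG regions of SQLvFLL 82.8% were gains, so this direction was not particular to these superfamilies. In FLHvFLL the CpHpG level of LINE regions was 68.0% in FLH and 48.4% in FLL with gains in 1 of 8 regions. Copia had gains there in 10 of 11, and 62.2% of all listed CpHpG regions of FLHvFLL were gains.

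**Figure D5:**
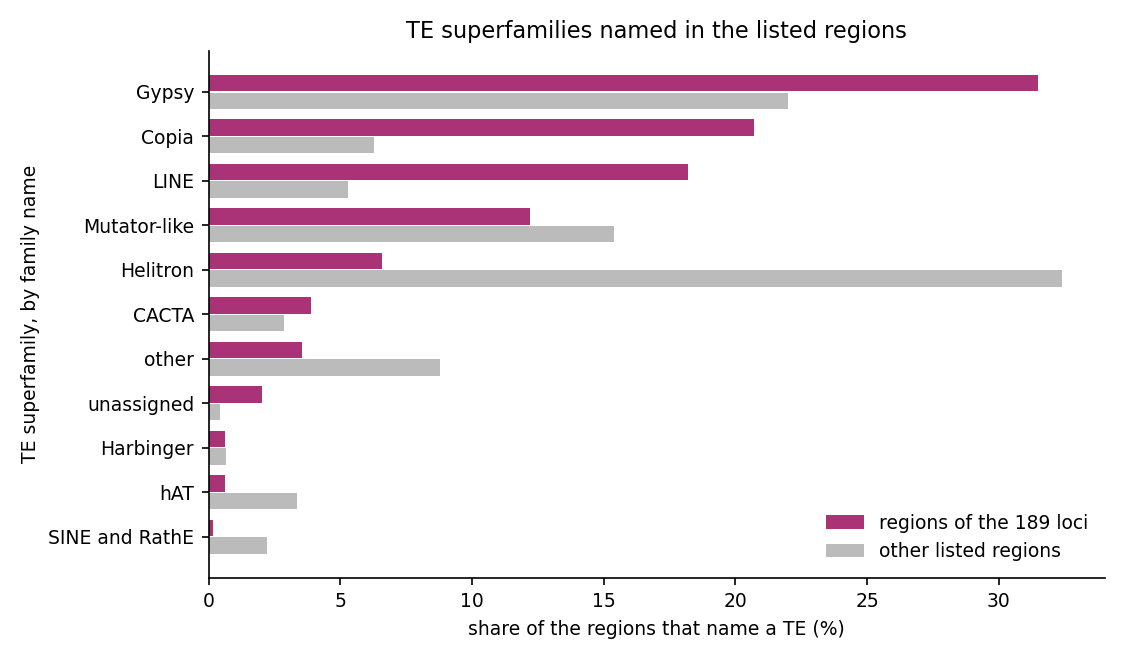
Share (percent) of the TE-naming regions that belong to each TE superfamily, for regions of the 189 loci and for all other listed regions; superfamilies were assigned from family names. Gypsy, Copia and LINE hold 31.5%, 20.7% and 18.2% of the regions of the loci, and Helitrons 6.57% against 32.4% elsewhere.

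By family, ATGP1 and TA11 each accounted for 82 regions in 11 loci, and ATLANTYS1 for 74 regions in 15 loci. TA11 is a LINE family, and 39.0% of its 210 listed regions lay in these loci. The Copia family ATCOPIA89 was concentrated most among families with at least 20 such regions, with 20 of its 24 listed regions in AT1G16660 and AT5G19097. The Gypsy family ATHILA2, with many copies in the genome, had only 5.48% of its 657 listed regions here.

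Some of the loci were neighbours. Within 10 kb of each other lay 23 loci in 11 groups. The group of 3 on chromosome 5, AT5G33442, AT5G33533 and AT5G33624 (12755641 to 12776410), carried ATLANTYS1 throughout and had 20 regions. The TA11 locus AT2G16680 and the ATCOPIA70 locus AT2G16670 are adjacent on chromosome 2 and had 28 regions together.

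The locus with the most regions was AT5G39770, annotated as a protein-coding gene of the type II restriction endonuclease-like superfamily, with 22 regions. They comprised 13 CpHpH, 5 CpG and 4 CpHpG regions, and only 6 named a TE (ATLANTYS1 or ATLANTYS3, within introns). Its 4 CpHpH regions of SQHvFLH were all gains, with a summed level of 15.3% in SQH and 27.0% in FLH, and its 2 CpHpH regions of SQLvFLL stood at 7.89% in SQL and 20% in FLL. A single region was called in SQHvSQL, with CpHpH at 23.1% in SQH and 11.1% in SQL. FLHvFLL held the most, 10 regions, whose levels are not given here. Over all 22 regions of the locus 13 were gains and 9 losses.

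The TA11 loci AT1G29650 and AT2G16680 had 16 regions each, 13 of them gains in both. In SQLvFLL both had 5 CpHpH regions, all gains, from 11.2% to 22.9% in AT1G29650 and from 14.9% to 27.1% in AT2G16680. The ATCOPIA11 locus AT1G70010 and the ATHILA-bearing locus AT3G30749 had 14 regions each, as did AT4G15590, AT5G25205 and AT5G36935, which carry LINE names and are not described further. AT3G30749 was named chiefly through CpHpG (8 regions) and CpG (5 regions). Its 2 CpHpG regions of SQHvFLH stood at 44.1% in SQH and 69.1% in FLH. Its 4 CpHpG regions of SQHvSQL, 2 gains and 2 losses, stood at 44.3% in SQH and 46.7% in SQL.

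Of the 38 protein-coding loci, 16 named no TE in any region and 14 named one in every region. Their 214 regions comprised 148 CpHpH, 52 CpG and 14 CpHpG. CpHpH regions were centred in introns in 86 cases and in coding exons in 33, and CpG regions in coding exons in 27 and introns in 17. Pseudogene members had a larger share of CpHpG, 336 of 1082 regions.

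Directions of the coding loci were less one-sided than those of the pseudogenes in the low light comparison of patterns. In SQLvFLL, CpG gains were 8 of 17 regions in protein-coding loci and 10 of 81 in pseudogenes (all listed regions 22.4%). Of those 17 regions, 7 were in coding loci that named no TE, and 5 of the 7 were gains. CpHpH gains there were 25 of 35 and 139 of 156 (all listed regions 73.3%). In SQHvFLH, CpG gains were 3 of 12 and 18 of 58 (all listed regions 42.4%), without such a difference. CpHpH gains in SQHvFLH were 13 of 33 in protein-coding loci (39.4%) and 74 of 131 in pseudogenes (56.5%), against 44.7% of all listed regions. These differences were seen in values that the choice of loci used and were not tested.

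ESP (AT1G54040) encodes the epithiospecifier protein, which directs glucosinolate breakdown away from isothiocyanates, and all 6 of its regions named a Helitron, ATREP1 or ATREP3. A CpG region centred in an untranslated exon stood at 76.5% in SQH, 54.7% in FLH and 76.9% in FLL. An intronic CpHpH window with ATREP3 stood at 13.9% in SQH, 27.3% in SQL and 16.1% in FLL. RKF2 (AT1G19090), a receptor-like kinase gene, had 7 CpHpH regions and no TE name. Its window outside the annotated gene stood at 21.0% in SQH, 10.9% in SQL and 9.97% in FLH, and a coding window at 16.1% in SQL, 17.2% in FLH and 27.6% in FLL.

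PUP1 (AT1G28230), a purine permease that also carries cytokinins, had 5 CpHpH regions in an intron with ATREP13. One window stood at 32.1% in SQH, 19.0% in SQL and 17.0% in FLH, and another window of the same intron at 10.9% (SQH), 33.1% (SQL), 11.2% (FLH) and 24.4% (FLL). In the first window SQH was the highest of the regimes given. In the other SQH and FLH were lowest and not separated, so that windows of one intron differed in order. AGL34 (AT5G26580), a MADS-box gene, was named through CpG and CpHpG alone, with a CpG window in which 26 of 26 reads were methylated in SQH, 13 of 20 in FLH (65.0%) and 48 of 50 in FLL (96.0%).

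AT5G52070, which encodes an Agenet domain protein, had intronic CpHpH levels of 48.8% in SQH, 33.5% in FLH and 47.4% in FLL over one region. AT2G01900, of the DNAse I-like superfamily, was 1 of the 2 loci with losses alone, among them CpHpH at 62.35% in SQH and 44.33% in SQL. AT4G29200 had 3 of its 4 CpHpH regions centred in coding exons and 1 in an intron, and the retrotransposon ORF gene AT3G44570 had gains in all 4 comparisons. AT5G32590, annotated as myosin heavy chain-like, was named by 3 CpG regions and 1 CpHpG region, with CpG at 88.2% in SQH, 65.3% in FLH and 92.5% in FLL.

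MIR407 (AT2G32698) was named through CpHpH windows with the Mutator-like family ATMU9. One stood at 38.6% (SQL), 39.8% (FLH) and 28.5% (FLL), and the next at 8.15% (SQH), 19.9% (SQL) and 22.3% (FLH). AT4G22800, the locus not annotated in RefSeq, had 5 CpHpH regions with ATREP10, and its first window stood at 37.3% (SQH), 14.7% (SQL), 17.9% (FLH) and 31.6% (FLL).

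No gene of the DNA methylation machinery list (0 of 19 genes) and none of the light perception and photoprotection list (0 of 14 genes) was named in all 4 comparisons. Over all RefSeq loci that share was 0.496%, so a count of 0 in lists of this length is not a result about them. In any comparison, 5 genes of the first list were named, CMT3 in 2 comparisons and MET1, ROS1, DML2 and AGO4 in 1 each. From the second list CRY1 and CRY2 were named in 1 comparison and PHOT1 in 2. Of all RefSeq loci 13.4% were named in any comparison.

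The rule has an edge on either side. Just inside it lay AT5G37665, whose weakest comparison was SQHvSQL with CpHpH at 51.2% in SQH and 38.7% in SQL, MIR407 through SQLvFLL (38.6% and 28.5%) and AT2G06555 through SQHvFLH (32.9% and 21.9%). Just outside lay the pseudogenes AT5G28935 and AT5G29075 with 10 regions each and AT1G41710 with 9, all of which lacked a region in SQHvSQL alone.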

How the data were processed

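The submitters' notes name Trimmomatic 0.39, Bismark and Bowtie2 with build TAIR10. Per the study's methods, the authors called DMRs with DMRcaller in 150 bp bins. The deposited tables give, for each called region, counts of methylated and total reads summed over its cytosines in 2 libraries, cytosine number, context, a deposited p-value, and gene and TE names. Only called regions are listed, the depth behind a region is its read count over its cytosines (at least 4.0), and total library depth was not analysed here. The authors' direction, proportion and difference columns were not used, and p-values served only for the edge of the rule and 1 alternative.

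Lines repeated for the same region and gene were counted once. Levels were recomputed from the counts in Python 3.11.15 with pandas 2.3.3, numpy 2.4.6 and SciPy 1.17.1 (figures, matplotlib 3.10.9), with 95% Wilson intervals. With 1 library per regime no test between groups was made. Members, gene lists and named loci were chosen with earlier results of these data known. Named loci were those with a position listed in all 4 tables (values for 12), the 3 loci the study names, 5 with most regions (2 of the 5 loci tied at 14 regions, taken by locus ID), coding loci without TE names or with a symbol (19), and loci at the edge of the rule. MIR407, AT4G22800 and further examples were chosen after their values were seen. Pericentromeres were the longest run of 500 kb windows per chromosome with under 0.5 times the median count of protein-coding genes. Superfamilies came from family names, and 134 of 137 labelled regions of 1 table had the same superfamily. Scripts were tested on simulated data. Alternatives varied the CpG difference, p-value, depth, naming, context, overlap, line counting, pericentromere limit and weighting.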

Additional observations from a re-analysis of the deposited data

Results flagged for a closer look

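The comparisons of intensity under square and under fluctuating light share no library. Of 35 positions of these loci listed in both SQHvSQL and FLHvFLL, 24 went in opposite directions and 11 in the same one, while over the series 187 of 338 (55.3%) were opposite. Without the positions listed in all 4 comparisons, whose choice limits their order, the loci had 11 opposite and 9 the same, and the series 110 of 254 opposite (43.3%). AT3G58730 was among the opposite ones, with CpG lower by 69.9 points in SQL than in SQH and higher by 53.0 points in FLL than in FLH. The comparisons of pattern at high and at low light share no library either. Of 28 positions listed in both SQHvFLH and SQLvFLL, 21 were opposite and 7 the same, while over the series 296 of 583 (50.8%) were opposite. Without the positions listed in all 4 comparisons the loci had 8 opposite and 5 the same, and the series 219 of 499 opposite (43.9%). With 1 library on each side these differences were not tested.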

How the results depend on the processing

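Of 62 values recomputed under the alternatives, 32 stayed within 1.5 times the count or within the counting interval, 27 moved and 3 reversed. The 189 loci became 62 with a deposited p-value of at most 0.001, 9 with at least 8 reads per cytosine, 745 with gene and TE names together and 105 with 1 context throughout. The 15 positions became 5 at the p-value limit and 3 at the depth limit. A CpG difference of at least 0.4 gave a pericentromeric share of 25.0%, a CpHpH share of 69.3%, and gains of 62.1% in SQHvFLH and 86.9% in SQLvFLL. The p-value limit gave a pericentromeric share of 24.6%, a CpHpH share of 67.3%, gains of 75.9% in SQLvFLL, and CpHpH differences of -5.12 points in SQHvSQL and 4.02 in FLHvFLL. One context throughout gave a pericentromeric share of 17.3%, a CpHpH share of 65.9% and gains of 78.4% in SQLvFLL. A limit of 0.25 for the gene density gave a pericentromeric share of 20.7%. The depth limit, with its 9 loci, gave a TE-named share of 77.8%, a pericentromeric share of 22.2%, a CpHpH share of 42.1% and gains of 55.6% in SQHvSQL, 33.3% in FLHvFLL, 36.4% in SQHvFLH and 44.4% in SQLvFLL. Its CpHpH differences were 3.01 points in SQHvSQL, -3.48 in FLHvFLL, 5.14 in SQHvFLH and -4.72 in SQLvFLL, 3 of them reversed, over few regions. For the remaining moves the cause was not tested. No paired analysis was possible because each regime has 1 library. At the 5 CpG positions listed in all 4 comparisons a level rests on 24 to 98 reads.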
